A study of Mus musculus with 574 samples.

Results

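The mitochondrial respiratory chain genes are the genes whose products form the electron transport chain and the ATP synthase of mitochondria. They were taken by gene symbol, as all mitochondrially encoded subunits of complex I, cytochrome b, cytochrome c oxidase and ATP synthase together with the nuclear families Ndufa, Ndufb, Ndufc, Ndufs, Ndufv, Uqcr, Cox4 to Cox8, Atp5 and Sdha to Sdhd. The symbol pattern found 100 of the 23706 genes of the table of cell pools, 8 encoded in mitochondrial DNA and 92 in the nucleus. In the table of single cells, which lists 25489 genes, 98 of the 100 were found, and Cox7b2 and Cox8b were not among them. Of the 92 nuclear genes, 38 encode subunits of complex I or their close relatives and 7 encode complex I assembly factors. A further 4 belong to complex II, 8 to complex III and 16 to complex IV, and 19 were grouped with ATP synthase by symbol. Among these 19, Atp5sl and Atp5s are now named Dmac2 and Dmac2l. Atp5l2, now Atp5l2-ps, and Atp5l-ps1 carry pseudogene symbols. The 8 mitochondrially encoded genes were mt-Nd1, mt-Nd2, mt-Nd3, mt-Nd4, mt-Nd5, mt-Nd6, mt-Co1 and mt-Cytb. The other 5 of the 13 in the annotation were mt-Co2, mt-Co3, mt-Atp6, mt-Atp8 and mt-Nd4l. They were not listed under these symbols in the table of cell pools and were not analysed here.

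All samples were cells of the developing ventral midbrain of C57BL/6 mouse embryos heterozygous for Lmx1a-EGFP, in which green fluorescent protein (GFP) reports Lmx1a, a transcription factor gene of the midbrain floor plate. Libraries were made by Smart-seq2, which copies whole transcripts from very small inputs. Pools of 100 cells formed 4 groups of 6: GFP positive at E13.5, counted in embryonic days, GFP negative at E13.5, GFP positive at E10.5 and GFP negative at E10.5. A further 550 libraries were single cells, of which 24.9% came from E10.5, 16.4% from E11.5, 32.4% from E12.5 and 26.4% from E13.5, and the labels of these cells give no GFP class. Every embryo thus carried the reporter allele, the GFP negative groups included. The labels name no embryo or litter, so p-values measure only the spread between pools, which may be technical.

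The respiratory chain passes electrons from NADH (complex I) and succinate (complex II) through ubiquinone, complex III, cytochrome c and complex IV to oxygen, and the protons pumped on the way drive ATP synthase. Complexes I, III, IV and ATP synthase are built from subunits of both genomes, whereas complex II is wholly nuclear. Transcripts of mitochondrial DNA come from long polycistronic precursors, and the nuclear genes are transcribed one by one, many of them under the factors NRF1, GABP and YY1.

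Values are reads scaled by transcript length and by mapped reads (RPKM), as deposited. No read counts were used here, so the depth behind a value is unknown. The pools summed to 684627 to 822096 RPKM and held 13312 to 14499 genes at an RPKM of at least 1. EGFP lay at 51.1 to 80.3 RPKM in E13.5 GFP positive pools against 0 in all E13.5 GFP negative pools, and at 170 to 231 RPKM in E10.5 GFP positive pools against 0 to 5.82 RPKM in E10.5 GFP negative pools. Globins, which mark red blood cells, were above 1% of RPKM in 2 of 6 E13.5 GFP negative pools and 5 of 6 E10.5 GFP negative pools, and in no GFP positive pool. The 8 floor plate markers, among them Lmx1a, Foxa2 and Shh, summed to 340 to 465 RPKM in E13.5 GFP positive pools against 90.6 to 162.9 RPKM in E13.5 GFP negative pools, and to 707 to 807 RPKM in E10.5 GFP positive pools against 210 to 310 RPKM in E10.5 GFP negative pools.

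The sequences behind 2 features of the data are shown first. In the mouse reference (GRCm38), a copy of mitochondrial DNA lies on the minus strand of chromosome 1, between positions 24611535 and 24616197 and annotated as 7 pseudogenes. It holds a copy of mt-Nd3, a small membrane subunit of complex I (mitochondrial chromosome, positions 9459 to 9806, plus strand), under the name Gm28438 (chromosome 1, positions 24612775 to 24613119). The first 60 bases of the gene and of the copy differ by T3C, counted from the first base of mt-Nd3, and are shown with that base in capitals because the 2 are nearly identical.
mt-Nd3: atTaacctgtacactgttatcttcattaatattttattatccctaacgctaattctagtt
Gm28438: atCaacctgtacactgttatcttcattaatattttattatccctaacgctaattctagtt
The same copy holds the first 876 of 1378 bases of mt-Nd4 and the last 483 of 1545 bases of mt-Co1, the mt-Co1 stretch with 1 mismatch. The levels of mt-Nd3, mt-Nd4 and mt-Co1 are therefore uncertain, since the sources used here do not say how reads with several positions were counted. mt-Nd5 and mt-Nd6 overlap by 14 bases on opposite strands, and their reads in that stretch cannot be told apart without strand.

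For the nuclear genes, RefSeq promoter windows (GRCm38.p6, 300 bases, 250 before to 50 after the transcription start) were found for 76 of 92 members, in 82 windows. On either strand, 28.05% of the members' windows held the NRF1 core GCGCANGCG, against 6.25% of all 32851 windows. The GABP core CCGGAAG was in 20.7% of the members' windows against 8.86% of all windows. The YY1 core AANATGGC was in 24.4% against 6.05%, and the SP1 core GGGCGG in 42.7% against 35.7%. These shares describe letters in a window and not binding. Windows of 3 genes that fell with stage in GFP positive pools are shown as examples. Each is on the minus strand, with matches to the NRF1, GABP or YY1 core in capitals. They do not stand for all members, of whose windows 28.05% held the NRF1 core. The 3 genes are Cox6a1 (chr5:115348909-115349208), Sdha (chr13:74350191-74350490) and Cox6b2 (chr7:4753045-4753344).
Cox6a1: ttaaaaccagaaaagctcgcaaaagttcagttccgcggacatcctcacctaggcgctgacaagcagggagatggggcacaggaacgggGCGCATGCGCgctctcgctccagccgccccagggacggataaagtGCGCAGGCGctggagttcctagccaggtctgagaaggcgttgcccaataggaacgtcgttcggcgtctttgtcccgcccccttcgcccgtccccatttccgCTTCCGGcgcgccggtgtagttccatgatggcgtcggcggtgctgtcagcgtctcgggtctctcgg
Sdha: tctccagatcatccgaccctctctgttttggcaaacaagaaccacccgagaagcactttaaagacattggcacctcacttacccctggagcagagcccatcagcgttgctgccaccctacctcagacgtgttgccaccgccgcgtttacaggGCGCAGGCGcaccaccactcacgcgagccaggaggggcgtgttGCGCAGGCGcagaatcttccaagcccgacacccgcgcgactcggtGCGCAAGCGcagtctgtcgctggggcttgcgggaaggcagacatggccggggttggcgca
Cox6b2: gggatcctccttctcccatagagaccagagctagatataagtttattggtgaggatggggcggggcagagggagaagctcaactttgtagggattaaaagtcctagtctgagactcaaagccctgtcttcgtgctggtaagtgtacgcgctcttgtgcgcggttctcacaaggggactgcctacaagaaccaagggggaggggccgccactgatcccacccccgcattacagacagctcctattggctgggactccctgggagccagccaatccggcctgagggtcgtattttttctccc
The windows of Cox6a1 and Sdha carried the NRF1 core more than once, and that of Cox6b2 carried none of the 3 cores.

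The 8 mitochondrially and the 92 nuclear encoded members took up shares of RPKM of similar size. The other 5 mitochondrially encoded protein genes are outside that share, so its size is not that of the whole mitochondrial genome. The mitochondrially encoded members held a mean of 2.83% ± 0.27 (SD, n = 6) of a pool's RPKM in E13.5 GFP positive pools and 3.43% ± 0.22 in E13.5 GFP negative pools. In E10.5 GFP positive pools they held 4.19% ± 0.26, and in E10.5 GFP negative pools 3.65% ± 0.42. The nuclear encoded members held 2.84% ± 0.16 in E13.5 GFP positive pools, 3.40% ± 0.25 in E13.5 GFP negative pools, 3.88% ± 0.10 in E10.5 GFP positive pools and 3.86% ± 0.38 in E10.5 GFP negative pools. Both shares were lower in every E13.5 GFP positive pool than in any E10.5 GFP positive pool, with ranges of 2.50% to 3.15% against 3.76% to 4.49% for the mitochondrially encoded genes and of 2.67% to 3.12% against 3.74% to 4.04% for the nuclear genes. In GFP negative pools the stages overlapped in both shares. mt-Rnr2, the large ribosomal RNA gene of mitochondrial DNA and not a member, went the other way, at 10.3% ± 1.54 in E13.5 GFP positive pools, 7.44% ± 1.17 in E13.5 GFP negative pools, 3.89% ± 0.48 in E10.5 GFP positive pools and 4.24% ± 0.93 in E10.5 GFP negative pools. In bulk pools, fewer cells of a type and less RNA per cell cannot be told apart.

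**Figure D1:**
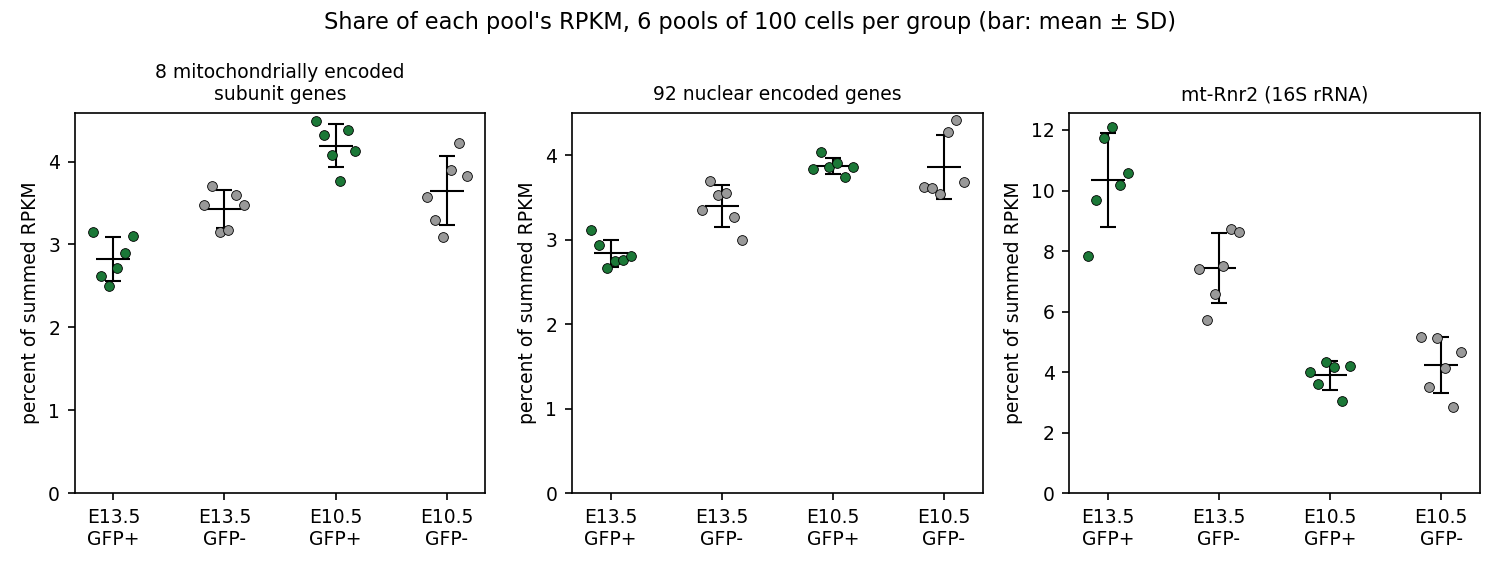
Share of each pool's RPKM (percent) held by the mitochondrially encoded members, the nuclear encoded members and mt-Rnr2. Each point is 1 pool of 100 cells and each line a group mean. Both member shares lie lowest in E13.5 GFP positive pools, where mt-Rnr2 is highest.

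Per unit of length, the 3 members with the highest levels were mitochondrially encoded. Over all 24 pools, mt-Co1, a catalytic subunit of complex IV, averaged 6402 RPKM, mt-Cytb, the cytochrome b of complex III, 6178 RPKM and mt-Nd1, a membrane subunit of complex I, 6056 RPKM. The nuclear gene with the highest level was Cox4i1, the ubiquitous isoform of subunit IV of complex IV, at 1657 RPKM. Its level was above those of mt-Nd2, at 1129 RPKM, and mt-Nd6, at 965 RPKM. It was followed among the complexes by Atp5b, the catalytic beta subunit of ATP synthase, at 1382 RPKM. Ndufa4, long listed with complex I and now placed in complex IV, averaged 687 RPKM, Uqcrh, the hinge protein of complex III, 547 RPKM and Sdhb, the iron-sulfur subunit of complex II, 255 RPKM. The assembly factors lay lower, from 7.31 RPKM for Ndufaf5 to 58.9 RPKM for Ndufaf2. The lowest tested members were Ndufa4l2 at 1.99 RPKM in complex I, Sdhd at 13.4 RPKM in complex II and Uqcrb at 184 RPKM in complex III. In complex IV it was Cox7a1 at 4.79 RPKM. In the ATP synthase group it was Atp5l-ps1, a pseudogene by its symbol, at 0.868 RPKM. A gene was tested where it reached an RPKM of 1 in at least 6 pools, which 96 members did, 89 nuclear and 7 mitochondrially encoded. The 4 that did not were Cox4i2, Cox7b2, Cox8b and mt-Nd3.

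The comparison of E13.5 with E10.5 asks how the levels differ between the later and the earlier stage within a GFP class. It was made with limma on log2(RPKM + 1), on which scale all fold changes are given, with Benjamini-Hochberg adjustment over all 15871 genes tested and a call at an adjusted p under 0.05. In GFP positive pools, 58 of the 89 nuclear members tested fell and 1 rose, whereas 29.6% of all genes tested fell and 22.1% rose. All 7 mitochondrially encoded members tested fell, and 5 to 7 of them across the scalings tried. The median log2 difference was -0.50 for the nuclear members and -0.76 for the mitochondrially encoded ones, against -0.14 for all genes tested. Calls among the nuclear members covered every complex: 23 of 38 complex I genes, 2 of 4 in complex II, 6 of 8 in complex III, 12 of 13 in complex IV, 11 of 19 in ATP synthase and 4 of 7 assembly factors fell. Under quantile normalization 39 nuclear members fell and 6 rose.

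Among the mitochondrially encoded genes, the fall was deepest for mt-Nd2, a core membrane subunit of complex I. Its lowest, median and highest values were 560, 582 and 746 RPKM in E13.5 GFP positive pools and 1561, 1847 and 2174 RPKM in E10.5 GFP positive pools. The stages did not overlap, and the log2 difference was -1.55 ± 0.13 (SE), with an adjusted p of 2.08e-10. mt-Nd4, another core subunit of the membrane arm, lay at 1854, 2101 and 2653 RPKM in E13.5 GFP positive pools and at 3972, 4363 and 4767 RPKM in E10.5 GFP positive pools. It fell by 1.003 on the log2 scale (SE 0.12, adjusted p = 1.7e-07), again with no overlap, within the uncertainty that its nuclear copy brings. mt-Nd6, the member on the minus strand of mitochondrial DNA, fell by 0.90 (SE 0.13, adjusted p = 2.07e-06), with 638, 715 and 860 RPKM in E13.5 GFP positive pools against 1131, 1377 and 1569 RPKM in E10.5 GFP positive pools.

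mt-Nd1 lay at 3792, 4272 and 4581 RPKM in E13.5 GFP positive pools and 6523, 7039 and 7930 RPKM in E10.5 GFP positive pools. mt-Cytb lay at 4107, 4504 and 5073 RPKM in E13.5 GFP positive pools and 6488, 7340 and 7902 RPKM in E10.5 GFP positive pools. Both genes were apart at the 2 stages, with log2 differences of -0.76 ± 0.08 for mt-Nd1 (adjusted p = 6.46e-09) and -0.69 ± 0.07 for mt-Cytb (adjusted p = 1.01e-08). The changes of mt-Nd5 and mt-Co1 were smaller. mt-Nd5, a core subunit at the tip of the complex I membrane arm, had 2169, 2498 and 2650 RPKM in E13.5 GFP positive pools and 2682, 2927 and 3073 RPKM in E10.5 GFP positive pools. Its stages did not overlap, at a log2 difference of -0.26 ± 0.08 (adjusted p = 0.00545). mt-Co1 had 5031, 5580 and 6146 RPKM in E13.5 GFP positive pools and 5918, 6695 and 7043 RPKM in E10.5 GFP positive pools, which overlapped. Its log2 difference was -0.25 ± 0.07 (adjusted p = 0.00231) and turned to 0.10 under quantile normalization.

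The stage differences of the 7 tested genes ranged from -1.55 for mt-Nd2 to -0.25 for mt-Co1. mt-Rnr2, from the same mitochondrial DNA, rose by 1.34 ± 0.14 in GFP positive pools (adjusted p = 8.26e-09), while mt-Rnr1, the small ribosomal RNA, had a difference of -0.07 and no call. Of 17 mitochondrial tRNA genes, 11 fell and 1 rose in GFP positive pools.

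**Figure D2:**
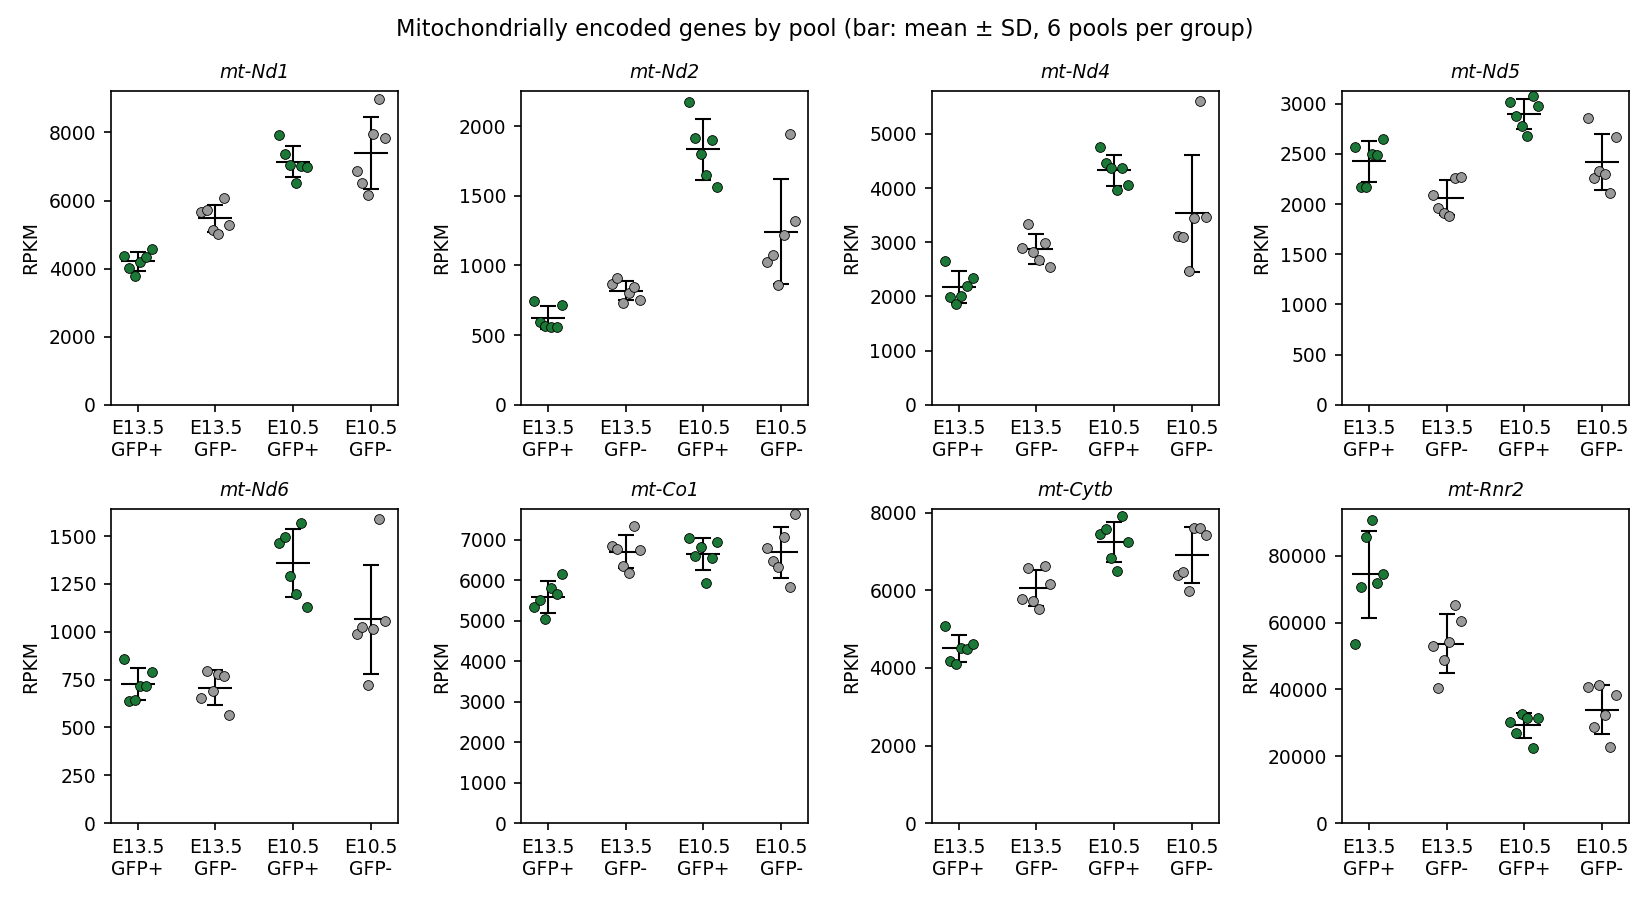
RPKM of 7 mitochondrially encoded members and of mt-Rnr2 in each pool (points) with the group mean (line), 1 panel per gene with its own linear axis. mt-Nd2 and mt-Nd4 separate E13.5 GFP positive from E10.5 GFP positive pools most widely, mt-Co1 overlaps between them, and mt-Rnr2 runs opposite.

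Complex IV held the nuclear gene that fell furthest. Cox6b2, the testis isoform of subunit VIb, had 3.51, 7.26 and 16.1 RPKM in E13.5 GFP positive pools and 27.1, 51.6 and 86.3 RPKM in E10.5 GFP positive pools. The stages were apart, at a log2 difference of -2.55 ± 0.40 (adjusted p = 6.44e-06). The widely expressed isoform of that subunit, Cox6b1, lay at 530, 614 and 663 RPKM in E13.5 GFP positive pools and at 734, 807 and 889 RPKM in E10.5 GFP positive pools. It fell by 0.41 (SE 0.09, adjusted p = 0.000281), and its level was above that of Cox6b2 in every pool. Cox6a1, the widely expressed isoform of subunit VIa, had 521, 541 and 584 RPKM in E13.5 GFP positive pools and 919, 1014 and 1064 RPKM in E10.5 GFP positive pools, with no overlap. Its log2 difference was -0.86 ± 0.08 (adjusted p = 9.33e-10). Cox8a, the widely expressed isoform of subunit VIII, fell by 0.78 ± 0.08 (adjusted p = 5.64e-09), and Cox4i1 fell by 0.35 ± 0.06 (adjusted p = 3.15e-05).

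Cox7a1, the heart and muscle isoform of subunit VIIa, was low and fell by 1.23 ± 0.47 (adjusted p = 0.0308), at 0.895, 2.29 and 5.32 RPKM in E13.5 GFP positive pools and 1.05, 7.30 and 22.1 RPKM in E10.5 GFP positive pools. Its groups overlapped, and leaving out any 1 of 6 pools ended the call, at an adjusted p of up to 0.101. Cox4i2, the oxygen-responsive isoform of subunit IV, was listed at 0 in all E13.5 GFP positive pools and did not exceed 0.438 RPKM in E10.5 GFP positive pools. Of 9 tested complex IV genes in a list of tissue isoforms and their widely expressed partners, all 9 fell among GFP positive pools and 6 among GFP negative pools.

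In complex III, Uqcr10, a small subunit, had 189, 200 and 276 RPKM in E13.5 GFP positive pools and 400, 561 and 661 RPKM in E10.5 GFP positive pools. The stages were well apart, at -1.35 ± 0.15 (adjusted p = 1.64e-08). Uqcrb, a subunit near the ubiquinone-binding site, had 81.4, 110.5 and 132.7 RPKM in E13.5 GFP positive pools and 212, 217 and 283 RPKM in E10.5 GFP positive pools. It also did not overlap, at -1.08 ± 0.12 (adjusted p = 4.66e-08). Uqcrh fell by 0.67 ± 0.10 (adjusted p = 1.56e-06). In complex II, Sdha, the flavoprotein that oxidises succinate, had 92.9, 122.8 and 155.6 RPKM in E13.5 GFP positive pools and 194, 236 and 318 RPKM in E10.5 GFP positive pools. Its groups did not overlap, at -1.01 ± 0.19 (adjusted p = 9.58e-05). Sdhb fell by 0.55 ± 0.10 (adjusted p = 3.12e-05), and Sdhd, a membrane anchor, was not called at -0.19 ± 0.35.

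In complex I, Ndufa12, an accessory subunit, had 143.6, 160.7 and 196 RPKM in E13.5 GFP positive pools and 302, 329 and 362 RPKM in E10.5 GFP positive pools. Its stages did not overlap, at -1.03 ± 0.09 (adjusted p = 8.74e-10). The accessory subunits Ndufb4, Ndufa7 and Ndufc2 fell by 0.94 ± 0.22, 0.88 ± 0.10 and 0.77 ± 0.10 (adjusted p = 0.000755, 3.67e-08 and 6.13e-07). Ndufa5, another accessory subunit, was not called at 0.06 ± 0.11. Among the assembly factors, Ndufaf3 was the nuclear member that rose, by 0.52 ± 0.18 (adjusted p = 0.0173), at 35.6, 51.7 and 61.5 RPKM in E13.5 GFP positive pools and 26.6, 33.2 and 51.8 RPKM in E10.5 GFP positive pools, which overlapped. Ndufaf5 fell by 0.87 ± 0.34 (adjusted p = 0.033), a call that ended without any 1 of 9 pools (adjusted p up to 0.0958). In ATP synthase, Atp5j2, a subunit of the membrane part, fell by 0.94 ± 0.22 (adjusted p = 0.000905) and Atp5b by 0.60 ± 0.11 (adjusted p = 8.52e-05). Of the 58 that fell, the 28 that the rule for naming genes did not pick did so by 0.19 to 0.82.

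In GFP negative pools, 47 of the 89 nuclear members tested fell and 2 rose, where 26.9% of all genes fell and 19.7% rose. Of the 7 mitochondrially encoded members, 5 fell. The medians were -0.31 for the nuclear members, -0.26 for the mitochondrially encoded ones and -0.11 for all genes. These counts depended on scale more than those of GFP positive pools. Scaling each pool to the same total moved the median of all genes to 0.01, a shift of over 0.1, and left 26 nuclear members lower and 4 higher, with 3 mitochondrially encoded members lower. Under quantile normalization 20 nuclear members fell and 5 rose, and no mitochondrially encoded member fell and 1 rose. Relative to the median of all genes, the nuclear members' median was -0.19 as deposited, -0.16 at equal totals and -0.09 under quantile normalization. With only the pools whose globins were at or under 1% of RPKM, which left 1 GFP negative pool at E10.5, 22 nuclear and 2 mitochondrially encoded members fell and none rose. The medians were then -0.51 for the nuclear members and -0.34 for the mitochondrially encoded ones, in a fit of fewer pools.

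Of the nuclear members that fell with stage, 42 were shared between the GFP classes, which is 72.4% of the 58 from GFP positive pools and 89.4% of the 47 from GFP negative pools. Over all genes tested the shared genes made up 69.8% of those lower among GFP positive pools and 76.9% of those lower among GFP negative ones. The 5 that fell in GFP negative pools alone by this count were Atp5k, Atp5l-ps1, Ndufa4l2, Sdhc and Sdhd. Of these, Ndufa4l2 was tested only because of its values in E10.5 GFP negative pools, and Atp5l-ps1 only because of its values at E10.5, so their calls follow in part from the filter on low values. The whole-model test of a difference between the 2 stage effects is given further on.

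Cox6b2 fell by 2.24 ± 0.40 in GFP negative pools as well (adjusted p = 4.73e-05), with 0.894, 6.01 and 12.2 RPKM in E13.5 GFP negative pools and 20.6, 27.9 and 36.8 RPKM in E10.5 GFP negative pools. The stages did not overlap. Uqcr10 fell by 0.88 ± 0.15 (adjusted p = 1.73e-05), at 144.03, 262 and 306 RPKM in E13.5 GFP negative pools and 355, 455 and 546 RPKM in E10.5 GFP negative pools. Cox6a1 fell by 0.72 ± 0.08 (adjusted p = 3.91e-08), Uqcrb by 0.69 ± 0.12 (adjusted p = 5.17e-05) and Ndufa12 by 0.66 ± 0.09 (adjusted p = 2.07e-06). Sdhd fell by 1.09 ± 0.35 (adjusted p = 0.013), at 2.304, 7.26 and 17.4 RPKM in E13.5 GFP negative pools and 8.04, 16.4 and 24.9 RPKM in E10.5 GFP negative pools, which overlapped. The 2 that rose were Ndufa5, by 0.52 ± 0.11 (adjusted p = 0.000455), and Atp5sl, now named Dmac2, by 0.66 ± 0.18 (adjusted p = 0.00416). Ndufa5 lay at 322, 358 and 416 RPKM in E13.5 GFP negative pools and 193, 265 and 325 RPKM in E10.5 GFP negative pools, with an overlap of a pool at each stage.

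Of the mitochondrially encoded genes in GFP negative pools, mt-Nd2 and mt-Nd6 each fell by 0.56 ± 0.13 (adjusted p = 0.00106 and 0.000916). mt-Nd2 had 728, 824 and 907 RPKM in E13.5 GFP negative pools and 861, 1148 and 1940 RPKM in E10.5 GFP negative pools, which overlapped slightly. mt-Nd1 fell by 0.42 ± 0.08 (adjusted p = 7.36e-05), at 5004, 5473 and 6060 RPKM in E13.5 GFP negative pools and 6150, 7355 and 8974 RPKM in E10.5 GFP negative pools, with no overlap. mt-Nd5 fell by 0.23 ± 0.08 (adjusted p = 0.0157), a call that ended without E10.5 GFP negative replicate 1 (adjusted p = 0.0514), and its difference was 0.017 under quantile normalization. mt-Cytb fell by 0.19 (adjusted p = 0.0365) as deposited and had a difference of 0.18 under quantile normalization, and leaving out any 1 of 6 pools ended its call (adjusted p up to 0.0931). mt-Nd4, at -0.26 ± 0.12 (adjusted p = 0.0949), and mt-Co1, at 0.01 (adjusted p = 0.941), were not called. mt-Rnr2 rose by 0.67 ± 0.14 (adjusted p = 0.000268).

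**Figure D3:**
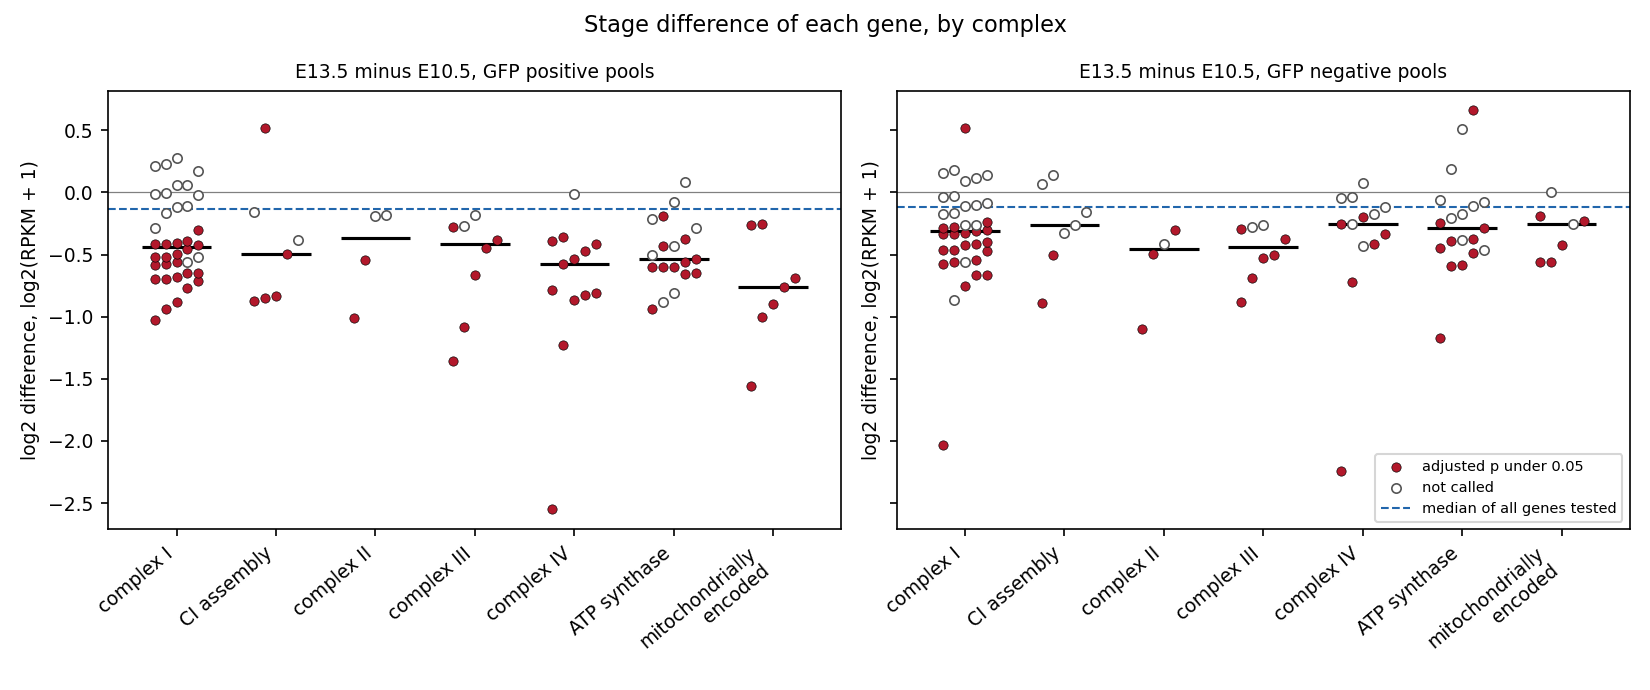
Log2 difference of E13.5 minus E10.5 for each tested member by complex, in GFP positive pools (left) and GFP negative pools (right). Called members are filled, and mitochondrially encoded genes stand in a column of their own. Most points lie below 0 in both panels, with a lower median in GFP positive pools.

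Markers of cell state moved with stage. The summed level of 10 neuronal genes was 4524 to 5102 RPKM in E13.5 GFP positive pools against 289 to 549 RPKM in E10.5 GFP positive pools, and 5201 to 5855 RPKM in E13.5 GFP negative pools against 1529 to 2950 RPKM in E10.5 GFP negative pools. The 8 progenitor genes summed to 1459 to 2197 RPKM in E13.5 GFP positive pools against 2900 to 3395 RPKM in E10.5 GFP positive pools, and to 599 to 1524 RPKM in E13.5 GFP negative pools against 2705 to 3486 RPKM in E10.5 GFP negative pools. The 6 cell cycle genes summed to 65.7 to 163.8 RPKM in E13.5 GFP positive pools against 1250 to 1570 RPKM in E10.5 GFP positive pools, and to 23.9 to 121.25 RPKM in E13.5 GFP negative pools against 666 to 1060 RPKM in E10.5 GFP negative pools. No gene of these 3 lists was at 0 in all pools of a group. Their part in the stage differences was not tested.

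Across all 24 pools, the nuclear members whose log2 level followed the summed nuclear members most closely were Cox8a (Pearson r = 0.949), Cox6a1 (r = 0.944), Ndufa3 (r = 0.939), Cox7a2 (r = 0.938) and Atp5j (r = 0.937). Each is itself part of that sum, and the 24 pools share the scaling of their RPKM.

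The stage counts of genes around the chain stand against the 29.6% of all genes that fell among GFP positive pools and the 26.9% that fell among GFP negative ones. Of 80 mitochondrial ribosomal protein genes, 60 fell among GFP positive pools (median -0.71) and 52 among GFP negative pools (median -0.58), and none rose in either. Of 76 cytosolic ribosomal protein genes tested, 60 fell and 1 rose in GFP positive pools (median -0.98). In GFP negative pools 57 of them fell and 1 rose (median -0.92). Of 20 tested genes for the expression and biogenesis of mitochondria, 11 fell among GFP positive pools, and 10 fell and 1 rose among GFP negative pools. Tfam, which packages and transcribes mitochondrial DNA, fell by 1.47 ± 0.23 among GFP positive pools and by 0.96 ± 0.23 among GFP negative ones (adjusted p = 6.67e-06 and 0.00125). Ssbp1, which binds single-stranded mitochondrial DNA, fell by 1.73 ± 0.25 among GFP positive pools and by 0.98 ± 0.25 among GFP negative ones (adjusted p = 1.79e-06 and 0.00214). Nrf1 and Gabpa, whose products bind the NRF1 and GABP cores, fell by 0.87 ± 0.18 and 1.11 ± 0.29 in GFP positive pools (adjusted p = 0.000176 and 0.00231). Any part of these factors in the levels of the members was not tested. Mfn2, a gene of mitochondrial fusion, rose by 1.36 ± 0.18 in GFP positive pools (adjusted p = 4.83e-07).

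Of 17 citric acid cycle genes tested, 7 fell and 1 rose in GFP positive pools, and of 17 carriers and membrane genes 10 fell and 2 rose. Of 35 electron carriers and assembly factors outside the symbol pattern, 11 fell and 3 rose, and the 31.4% that fell was near the share of all genes. Of 5 tested genes of uncoupling and the response to low oxygen 3 fell, among them Ucp2, an uncoupling protein of the inner membrane, by 2.39 ± 0.49 (adjusted p = 0.000205). The electron carriers hold Cyc1, cytochrome c1 of complex III, which fell by 0.20 ± 0.08 (adjusted p = 0.0318). Cycs, somatic cytochrome c, was not called at 0.57 ± 0.40.

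The GFP contrast compares cells sorted for the Lmx1a reporter with the other cells of the ventral midbrain at the same stage. At E13.5, 19 of the 89 nuclear members tested fell in GFP positive pools and none rose, where 3.74% of all genes fell and 3.42% rose. Of the 7 mitochondrially encoded members 4 fell, and none rose. At an unadjusted limma p under 0.05, 1 nuclear and 1 mitochondrially encoded member were higher at E13.5. The medians were -0.25 for the nuclear members, -0.38 for the mitochondrially encoded ones and -0.03 for all genes. Complex IV had 6 of its 13 tested nuclear genes among those that fell, complex I 7 of 38, ATP synthase 3 of 19, and complexes II and III and the assembly factors 1 each. Under quantile normalization 17 nuclear members fell, while no mitochondrially encoded member fell and 1 rose. With only pools of at most 1% globins, 9 nuclear and 5 mitochondrially encoded members fell, at medians of -0.22 and -0.36. Globins held 0.000542% to 0.00350% of RPKM in E13.5 GFP positive pools against 0.00362% to 3.13% in E13.5 GFP negative pools. Microglial markers, 8 genes, summed to 0 to 0.536 RPKM in E13.5 GFP positive pools, with C1qb, C1qc, Tyrobp and Fcer1g at 0, against 0 to 347 RPKM in E13.5 GFP negative pools. Markers of cell state also separated the GFP classes at this stage. With GFP, 6 of the 8 progenitor genes were called higher and 1 lower (median 1.18). Of the 10 neuronal genes, 2 were called lower with GFP and none higher (median -0.37). Neuronal sums were 4524 to 5102 RPKM with GFP and 5201 to 5855 RPKM without, so they did not overlap. What these cells and cell states contributed to the GFP differences at E13.5 was not tested.

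Cox5a, a nuclear subunit of complex IV, showed the difference in every pool. It had 322, 363 and 424 RPKM in E13.5 GFP positive pools and 496, 563 and 596 RPKM in E13.5 GFP negative pools. The groups did not overlap, at -0.63 ± 0.08 (adjusted p = 5.07e-06). Cox7b, another nuclear subunit, had 162.9, 315 and 429 RPKM in E13.5 GFP positive pools and 438, 521 and 567 RPKM in E13.5 GFP negative pools. It was apart by a small margin, at -0.90 ± 0.20 (adjusted p = 0.00478). Cox6b1 fell by 0.45 ± 0.09 (adjusted p = 0.00122) and Cox8a by 0.36 ± 0.08 (adjusted p = 0.0048). Cox4i1 fell by 0.22 ± 0.06 (adjusted p = 0.0337), a call that ended without any 1 of 7 pools (adjusted p up to 0.0847).

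Ndufc2 had 125.04, 159.7 and 179 RPKM in E13.5 GFP positive pools and 198, 238 and 283 RPKM in E13.5 GFP negative pools. It did not overlap, at -0.63 ± 0.10 (adjusted p = 0.000171). Ndufa4 had 414, 509 and 562 RPKM in E13.5 GFP positive pools and 601, 726 and 752 RPKM in E13.5 GFP negative pools, at -0.51 ± 0.09 (adjusted p = 0.000274), with no overlap. Ndufa5 fell by 0.52 ± 0.11 (adjusted p = 0.00364). Ndufaf5, an assembly factor that modifies a complex I subunit, had 1.88, 2.27 and 6.05 RPKM in E13.5 GFP positive pools and 4.63, 10.2 and 15.3 RPKM in E13.5 GFP negative pools. It showed the largest difference of a called member at E13.5, -1.49 ± 0.34 (adjusted p = 0.00559), and overlapped by 1 pool of each group. In ATP synthase, Atp5g3, one of several genes for the ring subunit c, had 252, 270 and 313 RPKM in E13.5 GFP positive pools and 335, 422 and 479 RPKM in E13.5 GFP negative pools. It was apart, at -0.57 ± 0.10 (adjusted p = 0.000275). Atp5f1, a subunit of the peripheral stalk, fell by 0.47 ± 0.08 (adjusted p = 0.000134). In complexes II and III, Sdhb fell by 0.37 ± 0.10 (adjusted p = 0.018) and Uqcrb by 0.47 ± 0.12 (adjusted p = 0.0194). The Sdhb call ended without E13.5 GFP negative replicate 5 (adjusted p = 0.0564) and the Uqcrb call without E13.5 GFP positive replicate 6 (adjusted p = 0.0567).

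Of the mitochondrially encoded genes at E13.5, mt-Cytb, whose values in GFP positive pools are given above, had 5521, 5968 and 6618 RPKM in E13.5 GFP negative pools. It did not overlap, at -0.43 ± 0.07 (adjusted p = 0.000237). mt-Nd1 also fell without overlap, by 0.38 ± 0.08 (adjusted p = 0.00222). mt-Co1 had 6170, 6756 and 7330 RPKM in E13.5 GFP negative pools and fell by 0.27 ± 0.07 (adjusted p = 0.0116), with no overlap, but its difference was 0.064 under quantile normalization. mt-Nd4 fell by 0.41 ± 0.12 (adjusted p = 0.044), a call that ended without any 1 of 9 pools (adjusted p up to 0.103). mt-Nd2, at -0.39 (adjusted p = 0.0705), mt-Nd5, at 0.23 (adjusted p = 0.0601), and mt-Nd6, at 0.04 (adjusted p = 0.918), were not called. mt-Rnr2 rose by 0.47 ± 0.14 (adjusted p = 0.0386), whereas mt-Rnr1 was called lower, at -0.44.

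In GFP positive pools at E10.5, 6 of the 89 nuclear members fell and none rose, where 8.64% of all genes fell and 4.51% rose, so the share of members was near that of all genes. Ndufa4l2 is 1 of the 6. Of the 7 mitochondrially encoded members 2 rose and none fell. At an unadjusted limma p under 0.05, 1 nuclear member was higher and no mitochondrially encoded member lower at E10.5. The medians were -0.12 for the nuclear members, 0.27 for the mitochondrially encoded ones and -0.01 for all genes. Scaled to equal totals, 2 nuclear members fell and 1 rose, and 4 mitochondrially encoded members rose. Without E10.5 GFP negative replicate 4, 3 nuclear members fell, and without replicate 5 of that group 4 mitochondrially encoded members rose. With only pools of at most 1% globins, 1 nuclear member fell and no mitochondrially encoded member was called, but that left 1 GFP negative pool. The medians in that fit were -0.24 for the nuclear members and 0.32 for the mitochondrially encoded ones. Over all pools at E10.5, all 10 neuronal genes were lower in GFP positive pools (median -2.85). Of the 8 progenitor genes, 3 were higher and 2 lower (median 0.40). The part of these cell states in the GFP differences at E10.5 was not tested.

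mt-Nd2 rose by 0.60 ± 0.13 in GFP positive pools at E10.5 (adjusted p = 0.00192), with 1561, 1847 and 2174 RPKM in E10.5 GFP positive pools and 861, 1148 and 1940 RPKM in E10.5 GFP negative pools, which overlapped. mt-Nd5 rose by 0.27 ± 0.08 (adjusted p = 0.017), with 2682, 2927 and 3073 RPKM in E10.5 GFP positive pools and 2111, 2314 and 2854 RPKM in E10.5 GFP negative pools, also with overlap. mt-Nd1 and mt-Cytb, which fell at E13.5, had differences of -0.04 and 0.07 at E10.5.

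Ndufa4l2, a relative of Ndufa4 known to be induced by low oxygen, was tested only because of its values in E10.5 GFP negative pools, since 3 of the other 18 pools reached 1 RPKM. Its differences are therefore given as a description. It had 0, 0.448 and 1.24 RPKM in E10.5 GFP positive pools and 1.23, 6.65 and 11.3 RPKM in E10.5 GFP negative pools, a log2 difference of -2.09. The ranges touched at a single pool. Cox4i2, which was not tested, had 0 to 0.438 RPKM in E10.5 GFP positive pools and 0.524 to 9.64 RPKM in E10.5 GFP negative pools, with a median of 1.78 RPKM in GFP negative pools. Both genes are also known from brain pericytes. The 8 mesenchyme and pericyte markers summed to 5.44 to 29.9 RPKM in E10.5 GFP positive pools, where Rgs5 was at 0 in every pool, against 136.2 to 358 RPKM in E10.5 GFP negative pools. At E13.5 the same markers summed to 0 to 5.72 RPKM in GFP positive pools, with Col3a1 and Dcn at 0, and to 0.426 to 10.8 RPKM in GFP negative pools. There Ndufa4l2 did not exceed 2.06 RPKM in any GFP positive pool or 1.09 RPKM in any GFP negative pool. The part of these cells in the result was not tested. Globins held 0.00507% to 0.0105% of RPKM in E10.5 GFP positive pools against 0.00556% to 9.60% in E10.5 GFP negative pools. The 8 microglial markers summed to 0 to 1.14 RPKM in E10.5 GFP positive pools, with 5 of them at 0, against 0 to 631 RPKM in E10.5 GFP negative pools. The 6 endothelial markers summed to 0.872 to 3.81 RPKM in E10.5 GFP positive pools, with Cldn5 and Tek at 0, against 2.33 to 70.7 RPKM in E10.5 GFP negative pools.

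The other 5 nuclear members that fell at E10.5 did so by 0.28 to 0.38. Atp5f1 fell by 0.34 ± 0.08 (adjusted p = 0.00206), with 377, 428 and 462 RPKM in E10.5 GFP positive pools and 462, 544 and 582 RPKM in E10.5 GFP negative pools, so that the groups met at their edges. Ndufb9, an accessory subunit of complex I, fell by 0.29 ± 0.08 (adjusted p = 0.0132), with 376, 418 and 461 RPKM in E10.5 GFP positive pools and 479, 499.5 and 562 RPKM in E10.5 GFP negative pools. Its groups did not overlap, and its call was lost at equal totals, under quantile normalization, without the variance trend and with only pools of at most 1% globins. Ndufs1, an iron-sulfur core subunit of complex I, fell by 0.38 ± 0.12 (adjusted p = 0.037), a call that ended without any 1 of 8 pools (adjusted p up to 0.0863). Cox6b1 fell by 0.29 ± 0.09 (adjusted p = 0.0265), which ended without any 1 of 5 pools (adjusted p up to 0.0891). Cox5a fell by 0.28 ± 0.08 (adjusted p = 0.021), which ended without E10.5 GFP positive replicate 6 or E10.5 GFP negative replicate 4 (adjusted p up to 0.0689). Of 17 mitochondrial tRNA genes, 6 rose at E10.5 in GFP positive pools and none was called at E13.5. Outside the chain, Slc25a5, an ADP/ATP carrier of the inner membrane, fell by 0.87 ± 0.14 at E10.5 and 1.12 ± 0.14 at E13.5 in GFP positive pools (adjusted p = 6.91e-05 and 4.22e-06).

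**Figure D4:**
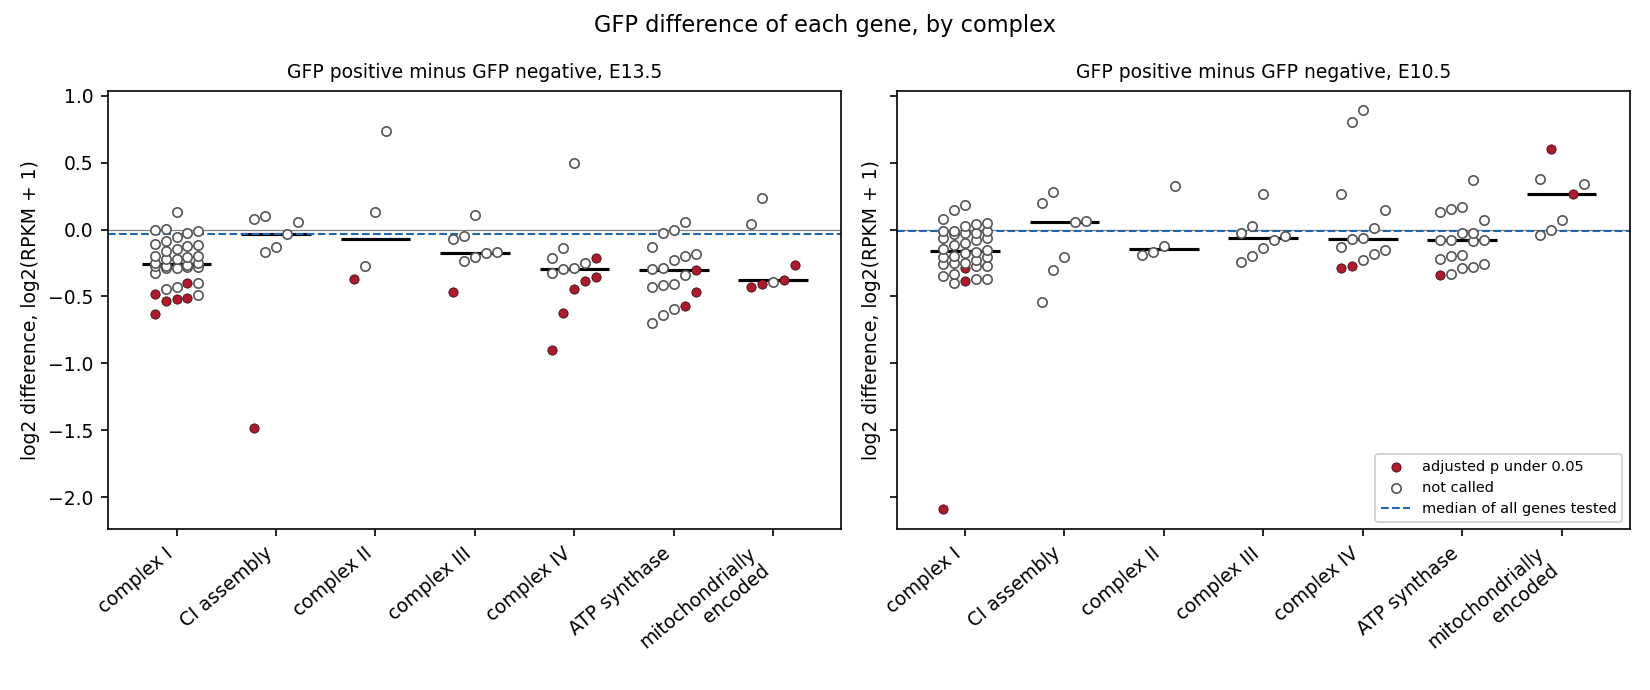
Log2 difference of GFP positive minus GFP negative pools for each tested member by complex, at E13.5 (left) and E10.5 (right), with called members filled. At E13.5 all called members lie below 0, whereas at E10.5 mt-Nd2 and mt-Nd5 lie above 0 and Ndufa4l2 far below.

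The change of the GFP difference between stages was tested as 1 term, the difference at E13.5 less that at E10.5. It shares its pools with the comparisons above. Of the 89 nuclear members 3 were lower and 1 was higher, where 1.90% of all genes were lower and 3.93% higher. Of the 7 mitochondrially encoded members 3 were lower. These were mt-Nd2, at -0.998 ± 0.19 (adjusted p = 0.0011), mt-Nd4, at -0.75 ± 0.18 (adjusted p = 0.00937), and mt-Cytb, at -0.50 ± 0.10 (adjusted p = 0.00266). The GFP difference of mt-Nd2 was -0.39 at E13.5 and 0.60 at E10.5, that of mt-Nd4 -0.41 and 0.34, and that of mt-Cytb -0.43 and 0.07. The nuclear member that was higher was Ndufa4l2, at 2.09, a value that carries the same limit as its GFP difference at E10.5. Ndufc2 was lower, at -0.60 ± 0.15 (adjusted p = 0.0119). Atp5g3, at -0.48 ± 0.14 (adjusted p = 0.0343), lost its call without any 1 of 13 pools (adjusted p up to 0.0668) and Ndufa7, at -0.47 ± 0.14 (adjusted p = 0.0478), without any 1 of 16 (adjusted p up to 0.0899). The count of lower nuclear members was 1 without replicate 1 or 2 of the E10.5 GFP negative pools, replicate 3 or 5 of the E13.5 GFP positive pools or replicate 3 or 5 of the E13.5 GFP negative pools. It was 5 without replicate 5 of the E10.5 GFP negative pools and 7 without replicate 6 of the E13.5 GFP negative pools. With only pools of at most 1% globins, no nuclear member and 1 mitochondrially encoded member was called. The medians were -0.07 for the nuclear members against -0.17 over all pools, and -0.34 for the mitochondrially encoded ones in both fits.

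In single cells each stage is 1 sample, so the values are described with no test, and quartiles and intervals cover cells only. The table differed between stages in 1 member. mt-Nd3 reached 10 RPKM in 94.9% of E10.5 and 98.6% of E13.5 cells, but was 0 in every E11.5 and every E12.5 cell. In the pools it was above 0 in 3 of 24, at 7.25 RPKM in 1 E13.5 GFP positive pool, 11.8 RPKM in 1 E13.5 GFP negative pool and 9.79 RPKM in 1 E10.5 GFP positive pool. Of 25489 genes, 2466 were at 0 in all E11.5 and E12.5 cells, and mt-Nd3 was the 1 of these that reached 10 RPKM in over 30% of E10.5 and of E13.5 cells. It is the gene whose nuclear copy is shown above. The cause of this pattern was not tested. The median number of genes at an RPKM of at least 1 also differed, at 5747 in E10.5, 3567 in E11.5, 4266 in E12.5 and 4287 in E13.5 cells.

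The mitochondrially encoded members held a median of 1.93% of a cell's RPKM at E10.5 (quartiles 1.55% and 2.28%), 1.47% at E11.5, 2.11% at E12.5 as well as 2.49% at E13.5 (quartiles 1.99% and 2.94%). Without mt-Nd3 the medians were 1.87% at E10.5, 1.47% at E11.5, 2.11% at E12.5 as well as 2.44% at E13.5. The median was thus higher in E13.5 than in E10.5 cells, the opposite order to the pool medians of either GFP class, with quartile ranges that overlapped. The nuclear members held 2.85% at E10.5, 1.60% at E11.5, 2.42% at E12.5 as well as 2.50% at E13.5, the same order of the end stages as in the pools. Nuclear members over mitochondrially encoded members gave a median ratio of 1.48 at E10.5, 1.03 at E11.5, 1.14 at E12.5 as well as 1.02 at E13.5. The ratio covers the listed members only, not all genes of mitochondrial DNA. mt-Rnr2 held 5.68% at E10.5, 9.35% at E11.5, 7.19% at E12.5 as well as 8.59% at E13.5, higher at E13.5 than at E10.5 as in the pools. The 2 tables were normalized separately.

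Cells with EGFP at 10 RPKM or more made up 75.2% of E10.5 cells, 30% of E11.5 cells, 28.1% of E12.5 cells and 26.9% of E13.5 cells, and 1 to 4 cells a stage lay between 5 and 20 RPKM. In them the mitochondrially encoded share had medians of 1.99% at E10.5, 1.68% at E11.5, 2.08% at E12.5 as well as 2.58% at E13.5, and the nuclear share 2.86%, 1.22%, 2.42% and 2.60% in the same order. In cells with EGFP under 10 RPKM the mitochondrially encoded share was 1.65%, 1.40%, 2.13% and 2.48%, and the nuclear share 2.84%, 1.76%, 2.43% and 2.48%. Within either EGFP class the mitochondrially encoded share was again higher at E13.5 than at E10.5. At E13.5 the mitochondrially encoded share was 2.58% in cells with EGFP and 2.48% in cells without. The nuclear share was 2.60% and 2.48%. In the pools at E13.5, the means of both shares were instead lower in GFP positive than in GFP negative pools. Sox2, a progenitor gene, and Stmn2, a neuronal gene, gave 2 further ranges. Cells with Sox2 at 10 RPKM or more and Stmn2 under 10 RPKM had a mitochondrially encoded share of 2.04% at E10.5 (53 cells) and 2.83% at E13.5 (6 cells). Cells with the reverse had 2.14% at E10.5 (8 cells) and 2.46% at E13.5 (82.1% of that stage's cells). The direction between these stages was the same in both ranges, with very few cells at 1 end of each.

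Among the mitochondrially encoded genes, mt-Nd4 averaged 1211 RPKM in E10.5 cells, 426 RPKM at E11.5, 1349 RPKM at E12.5 as well as 1740 RPKM at E13.5. mt-Co1 averaged 4413, 3317, 5116 and 5425 RPKM in that order of stages. mt-Nd2 averaged 571, 254, 414 and 514 RPKM, and mt-Nd5 averaged 1182, 1860, 1195 and 1290 RPKM. E11.5 cells were thus lowest for mt-Nd4, mt-Co1 and mt-Nd2 and highest for mt-Nd5, while mt-Nd2 was the gene of these 4 with a lower mean at E13.5 than at E10.5.

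Most nuclear members were present in most cells. At 10 RPKM or more, the median cell held 70 of the 90 nuclear members listed at E10.5, 49 at E11.5, 60 at E12.5 as well as 61 at E13.5. Between E13.5 and E10.5, 68 of 90 had a lower mean and 81 of 90 were present in a lower share of cells at E13.5. The number of genes per cell was also lower, as given above, and its part was not tested. The same counts were not made over all genes, so they cannot be read as particular to the members. Uqcr10 was at 10 RPKM or more in 91.97% of E10.5 cells (exact 95% interval 86.1% to 95.9%), 56.7% at E11.5, 67.4% at E12.5 as well as 75.2% at E13.5 (67.3% to 81.97%). Cox6b2 was present in 29.9% of E10.5 cells (22.4% to 38.3%), 4.44% at E11.5, 5.62% at E12.5 as well as 4.14% at E13.5 (1.53% to 8.79%). Cox4i1 was in 99.3% of E10.5 and 99.3% of E13.5 cells, so the testis isoform and the ubiquitous subunit differed widely in how many cells held them. Cox7a1 was in 8.76% of E10.5 cells and in 0% of E11.5 cells (upper bound 4.02%), 1.12% of E12.5 cells and 2.07% of E13.5 cells. Ndufa4l2 and Cox4i2 were near absent, in 0.730% of E10.5 cells each and in at most 1.12% at any later stage.

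**Figure D5:**
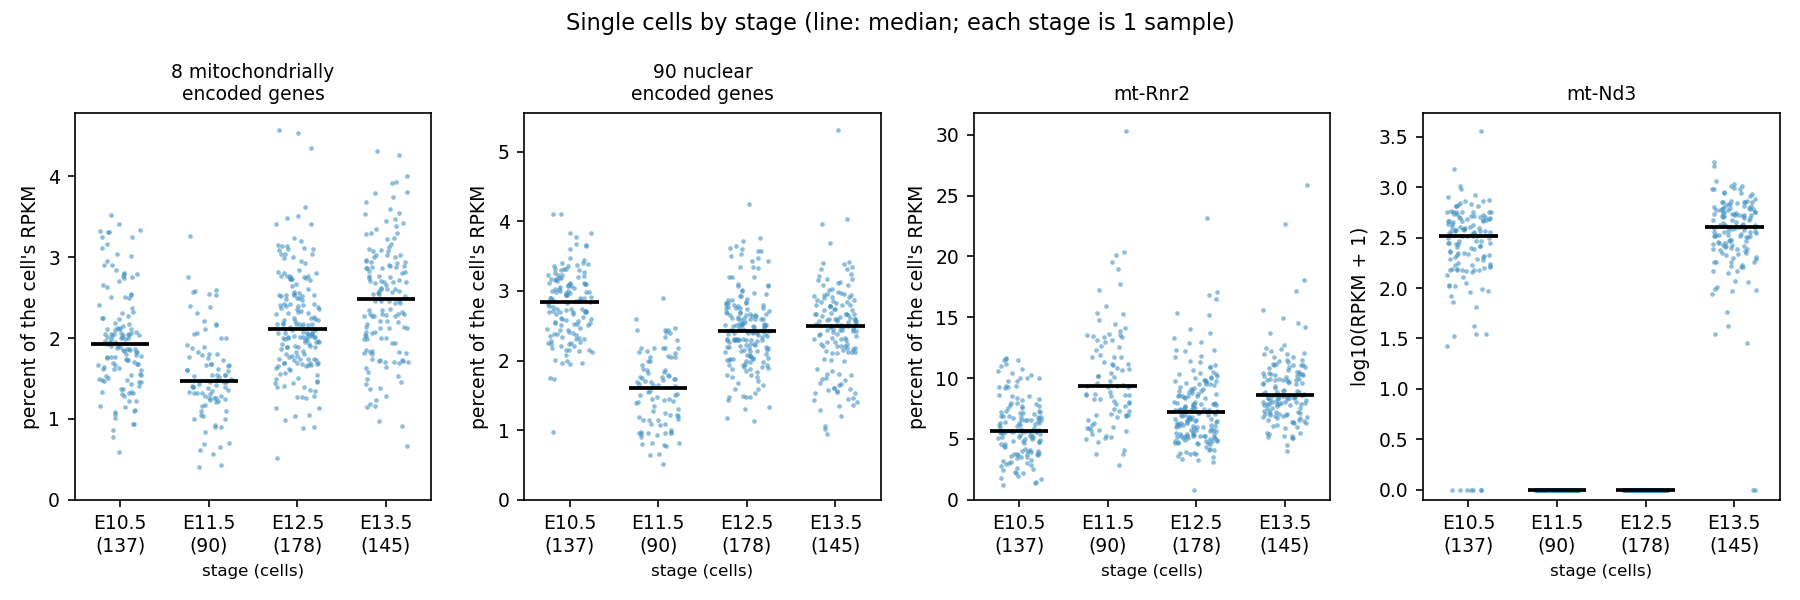
Single cells by stage, each point 1 cell with the median as a line: percent of RPKM held by the 8 mitochondrially encoded members, by the 90 nuclear members and by mt-Rnr2, and log10(RPKM + 1) of mt-Nd3. The mitochondrially encoded median is highest at E13.5, the nuclear median is highest at E10.5, and mt-Nd3 is at 0 in every E11.5 and E12.5 cell.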

How the data were processed

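The chemistry was Smart-seq2 with Nextera XT tagging and a HiSeq 2000, per the labels' protocols. STAR 2.3.0 and the mm10 build are listed, per the submitters' processing notes. How reads were counted, and against which annotation, is not given in the sources used here. Pools are in a table of RPKM as deposited. The single-cell table holds log2 values as deposited, which the values show to be log2(RPKM + 0.001), and these were turned back into RPKM. No counts were used, so depth is unknown and count models were not used. No columns were identical.

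Pool tests used limma 3.58.1 in R 4.3.3 on log2(RPKM + 1), with 4 group means in 1 model over 24 pools, a variance trend, and Benjamini-Hochberg adjustment over the 15871 genes that reached an RPKM of 1 in 6 pools or more. The test was checked on simulated data. Cells were described by stage with no test, no cell was left out and no doublet caller was run; exact intervals are Clopper-Pearson and cover counting of cells only. Promoter sequences came from RefSeq (GRCm38.p6) and coordinates from the GRCm38 annotation.

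The members and lists were chosen with earlier results of these data known. Genes were named by rule: every mitochondrially encoded member, up to 8 called members per direction and contrast with a mean RPKM of at least 10, the highest and lowest of each complex, isoform lists, and the 5 closest to the nuclear sum. Cyc1, Cycs, Tfam, Ssbp1, Nrf1, Gabpa, Mfn2, Ucp2 and Slc25a5, outside the members, were picked after their values were seen, from lists of pathway genes. Alternatives were other pseudocounts, filters and scalings (equal totals, equal totals without mitochondrial and globin genes, quantiles), no variance trend, only the pools of a contrast and each pool left out. The summed red cell marker list is not reported here.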

Additional observations from a re-analysis of the deposited data

Results flagged for a closer look

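In 20 of 220 groups of 6 pools, 1 pool stood apart from the other 5 by more of the range than Dixon's 95% critical value allows. For normally distributed values chance gives about 5%, or about 1 in 20 groups. In the flagged groups of mt-Nd3, Cox7b2, Atp5g2 and Atp5l-ps1, the other 5 pools had a median of 0. Such values near the floor are not normally distributed, so the 20 groups cannot be read as an excess over chance. Among the 20, mt-Nd3 was above 0 in a single pool of 3 groups, at 7.25 RPKM in E13.5 GFP positive, 11.8 RPKM in E13.5 GFP negative and 9.79 RPKM in E10.5 GFP positive pools. mt-Nd4 reached 5615 RPKM in the fifth E10.5 GFP negative pool, where the others had a median of 3112 RPKM. In E13.5 GFP positive pools, Uqcr10 stood high in replicate 2 at 276 RPKM, and Cox7a2l and Ndufa4l2 stood high in replicate 1 at 266 and 2.06 RPKM. In E13.5 GFP negative pools, replicate 6 was low for Uqcr10 at 144.03 RPKM and for Cox6b1 at 695 RPKM. There, too, Atp5b was high in replicate 2 at 1469 RPKM, Ndufb4 in replicate 4 at 29.1 RPKM, and Sdhd and Cox7b2 in replicate 3 at 17.4 and 2.78 RPKM.

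In E10.5 GFP positive pools, replicate 5 was low for Atp5j2 at 199.7 RPKM, against a median of 467 RPKM in the others, and high for Cox7a1 at 22.1 RPKM and Sdhd at 23.8 RPKM. Atp5l-ps1 was high in replicate 3 at 5.22 RPKM and Ndufaf3 in replicate 1 at 51.8 RPKM. In E10.5 GFP negative pools, Atp5g2 was high in replicate 2 at 5.95 RPKM and Cox7b2 in replicate 4 at 2.97 RPKM.

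The GFP difference itself differed between E13.5 and E10.5, by limma's test of that term, for 7 members. The log2 difference between stages was 2.09 for Ndufa4l2, -0.998 for mt-Nd2, -0.75 for mt-Nd4, -0.60 for Ndufc2, -0.50 for mt-Cytb, -0.48 for Atp5g3 and -0.47 for Ndufa7. Ndufa4l2 entered the test only through its values in E10.5 GFP negative pools, so its value is a description.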

How the results depend on the processing

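No paired analysis was possible because the titles of the pools carry no replicate numbers shared between groups. Across libraries left out, 322 of 336 counts and levels stayed within the limits set, and across the other settings 183 of 232. For a mean share the limit was the SD of its 6 pools, which leaving out 1 pool cannot exceed. Counts of 0 in both fits were also scored as unchanged. The first tally therefore says little about how firm the results are. Scaled to equal totals, in GFP positive against GFP negative pools at E10.5, 2 nuclear members were lower, 1 was higher and 4 mitochondrially encoded members were higher; with stage, 3 nuclear members were higher among GFP positive pools, and among GFP negative pools 26 were lower, 4 higher and 3 mitochondrially encoded members lower; for the change of the GFP difference 6 nuclear and 5 mitochondrially encoded members were lower. Scaled without mitochondrial and globin genes, stage gave 3 nuclear members higher among GFP positive pools, and among GFP negative pools 27 lower, 4 higher and 3 mitochondrially encoded members lower. Under quantile normalization, E10.5 gave 3 nuclear members lower and 5 mitochondrially encoded members higher in GFP positive pools. E13.5 gave 0 mitochondrially encoded members lower and 1 higher. Stage gave 6 nuclear members higher among GFP positive pools, and among GFP negative pools 20 lower, 5 higher, and 0 mitochondrially encoded members lower with 1 higher. Quantile normalization also reversed mt-Co1, to 0.064 in the GFP comparison at E13.5 and 0.10 with stage in GFP positive pools. With stage in GFP negative pools it reversed mt-Nd5 to 0.017, mt-Cytb to 0.18, Cox6b1 to 0.076, Ndufa4 to 0.10 and Cox4i1 to 0.086. Without the variance trend, 2 nuclear members were lower and 1 mitochondrially encoded member higher at E10.5, and 11 nuclear and 2 mitochondrially encoded members were lower at E13.5. In that fit, stage in GFP negative pools gave 3 mitochondrially encoded members lower, and the change of the GFP difference 1 nuclear member lower. With no filter on low values, 2 mitochondrially encoded members were lower at E13.5 and 2 nuclear members higher for the change. At a mean RPKM of at least 5, 1 mitochondrially encoded member was higher at E13.5 and 0 nuclear members higher for the change. Pools with globins at or under 1%, chosen after seeing the data, kept 6 GFP positive and 4 GFP negative pools at E13.5 and 6 and 1 at E10.5, the lone pool being assumed to vary like the others. They gave 1 nuclear member lower and 0 mitochondrially encoded members higher at E10.5, 9 nuclear members lower at E13.5, 22 nuclear members lower, 0 higher and 2 mitochondrially encoded members lower with stage in GFP negative pools, and 0 nuclear members lower, 0 higher and 1 mitochondrially encoded member lower for the change. The nuclear and mitochondrially encoded medians in these fewer pools were -0.24 and 0.32 at E10.5, -0.22 and -0.36 at E13.5, -0.51 and -0.34 with stage in GFP negative pools, and -0.07 and -0.34 for the change. The cause of these shifts was not tested. The fit of only the pools of a contrast has no value for the change of the GFP difference.

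With each pool left out, nuclear members lower numbered 3 to 6 at E10.5, 13 to 26 at E13.5, 55 to 59 with stage among GFP positive pools, 41 to 49 among GFP negative pools and 1 to 7 for the change. Mitochondrially encoded members higher numbered 2 to 4 at E10.5 and 0 to 1 at E13.5, the 1 arising without E13.5 GFP positive replicate 2 or 3 or E13.5 GFP negative replicate 5 or 6. Of calls on named members, 8.85% of 1344 fits with a pool left out lost the call and none reversed. Rescaling each cell to the same total gave median sums of 19289, 14734, 21102 and 24880 RPKM for the mitochondrially encoded members at E10.5, E11.5, E12.5 and E13.5, against 14148, 9993, 15013 and 17488 RPKM as deposited. The nuclear members gave 28466, 16005, 24239 and 24967 RPKM, against 20865, 11037, 16704 and 17807 RPKM. mt-Nd3 left out of the cell sum, also chosen after seeing the data, changed no median by as much as the spread of cells. That limit is wide for 1 gene. At E11.5 and E12.5, where mt-Nd3 was 0 in every cell, no change was possible. With no counts, the precision of low members such as Atp5l-ps1, Ndufa4l2 and Cox7a1 cannot be given.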
